A study of Mus musculus with 6 samples.

Results

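The regions described here are 447 RBPJ peaks of cycling F9 cells that lay in exons or just past the ends of transcripts and had no counterpart in the peak list of mitotic cells. They were chosen by the positions in both deposited peak lists: among the 5206 peaks of asynchronous cells, a peak was taken when no mitotic peak centre lay within 250 bp of its centre, when its centre fell in an exon of GENCODE M1 or from 100 bp before to 1 kb after a transcript end, and when it did not fall from 1 kb before to 100 bp after any transcript start. Of all asynchronous peaks, 91.8% had no mitotic centre within 250 bp, and of the 478 in exons and end windows 447 had none. That absence and the location are therefore a description of how the regions were selected on the lists, and nothing is tested on them. The authors compared read enrichment between the populations instead of peak positions. By that measure they counted most asynchronous sites as also occupied in mitotic cells, so the 91.8% is not a share of sites lost in mitosis.

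F9 is a murine embryonal carcinoma cell line. RBPJ was mapped by chromatin immunoprecipitation and sequencing with a rabbit antibody raised against the mouse protein in asynchronous and in mitotic cells. The asynchronous cells were labelled as 95% interphase and 5% mitotic, and the mitotic cells had been arrested with nocodazole. The series holds 6 libraries, 2 immunoprecipitations and 1 input for each population, and 1 peak list per population was used here, from the first immunoprecipitation. Replicate lists were not analysed here, so every interval and p below covers counting error over peaks only.

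RBPJ is the DNA-binding protein through which Notch receptors act on their target genes: with the cleaved receptor it activates them, and in its absence RBPJ can recruit corepressors. CTCF is a zinc-finger protein that, with cohesin, organises chromatin loops. Genes of the Hes and Hey families, which encode repressors, are the best known targets of RBPJ.

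The sequences below show the RBPJ motif, TTCCCAC followed by A or G, in members named for a high score, for a second motif or for their gene. Each is 30 bases of mm9 on the strand that reads the motif, 5′ to 3′, with the motif in capitals. A match is a description of the letters and not a binding site.
Pawr, chr10:107852273-107852302, plus strand: tggcactcactTTCCCACGatcccccttta
1700063H04Rik, chr6:122342070-122342099, plus strand: actggaatcaaTTCCCACAgccaggtctct
Ghrh, chr2:157154554-157154583, plus strand: ctgcagagcacTTCCCACGctttccattgc
BB014433, chr8:15042990-15043019, plus strand: aggccgtggatTTCCCACAgttgtaagaga
Lrp1, chr10:127013502-127013531, plus strand: tgtccaggagtTTCCCACGgtagatcttgt
Hes3, chr4:151659734-151659763, plus strand: gatccttgaccTTCCCACAcattctgatgc
Tubb3, chr8:125946527-125946556, plus strand: ctagtggtggtTTCCCACAacttcagaatg
Hist1h2be, chr13:23674734-23674763, plus strand: gttctcccagcTTCCCACAgtccctatctg
Prdm14, chr1:13115928-13115957, minus strand: gccagctcggtTTCCCACAgatccgcaaaa

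The next sequences show the CTCF motif, searched as CCANNAGNNGGC, in members with high scores that held it and in the ribosomal protein gene Rps19. The capitals again mark the motif.
2210011C24Rik, chr8:86533920-86533949, plus strand: gcgttctcaCCACCAGGGGGCagtagggcc
9030617O03Rik, chr12:102079609-102079638, minus strand: tcattgtgaCCACCAGAGGGCagcagaagc
Lag3, chr6:124853759-124853788, plus strand: gagcggtgaCCACTAGGTGGCagtgtgttg
Frmd8, chr19:5849269-5849298, minus strand: aatacgacaCCAGCAGATGGCcctacagga
Lrp1, chr10:127013539-127013568, plus strand: cacgtcggtCCAGTAGAGGGCactctggct
Rps19, chr7:25675638-25675667, plus strand: actcttcggCCACTAGGTGGCagctgctag

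The members were spread over the whole length of transcripts. End windows outside exons held 150 (33.6%), last exons 133 (29.8%), inner exons 97 (21.7%), first exons 51 (11.4%) and single-exon transcripts 16 (3.58%). Each exon member was placed by 1 reference transcript, a protein-coding one where there was a choice and then the longest. Of the 297 exon members, 120 had their centre in coding sequence, 79 in a 3′ UTR, 32 in a 5′ UTR and 66 in a transcript or exon without coding sequence. First-exon members were mostly untranslated, with 24 in 5′ UTRs, 10 coding and 17 non-coding. Inner-exon members were mostly coding, 82 of 97. Last-exon members lay in 3′ UTRs in 68 cases, in coding sequence in 24 and in non-coding transcripts in 39. Among mitotic-only peaks chosen by the same location rule, 309 in number, 73 (23.6%) lay in end windows, 97 (31.4%) in last exons and 92 (29.8%) in inner exons.

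**Figure D1:**
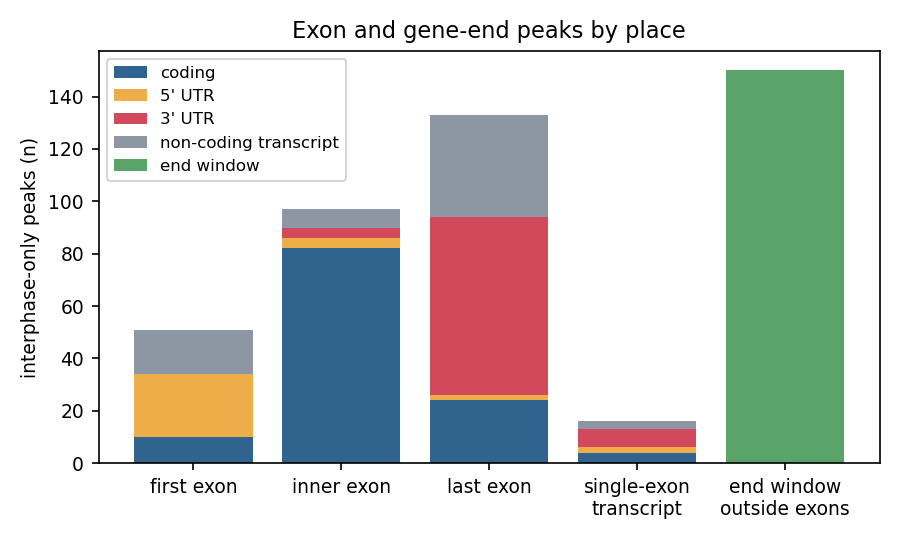
Number of members (vertical axis) in each place of a transcript (horizontal axis), with colours for coding sequence, UTRs, non-coding transcripts and end windows. Inner exons were mostly coding (82 of 97) and last exons mostly 3′ UTR (68 of 133).

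Per length of genome, the members were sparser than promoter peaks and denser than intron peaks. The exon and end territory, after removal of promoter windows, covered 123 Mb and held 3.62 members per Mb (95% Poisson interval 3.29 to 3.97). Promoter windows held 23.0 interphase-only peaks per Mb, introns 1.50 and the space outside genes 1.04. Within the territory, coding sequence held 3.81 per Mb, other exon sequence 4.08 and end windows 3.09. These densities rest on the location that chose the members and were not tested.

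First-exon members lay close behind the promoter window that bounded them. Their median distance from the transcript start was 234 bp, 32 of 51 were under 300 bp and 1 was beyond 1000 bp. The inner exons that held a member had a median length of 170 bp, and 50 of 97 were shorter than the 173 bp peak. Members outside exons lay at a median of 489 bp past the transcript end, with 76 of 150 within 500 bp. Of these 150, 66 also lay inside the span of some other transcript. Transcripts overlap, so that 26 members lay at more than 1 gene.

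Most members were at protein-coding genes, 380 of 447 (85.0%). Another 29 were at lincRNAs and 23 at processed transcripts. The 447 members fell at 435 genes, 12 of which had 2 members and 0 of which had more. The pairs included Lrp1, an endocytic receptor of the LDL receptor family, with an inner-exon and an end peak, Ltbp4, a binding protein of latent TGF-beta, Pou4f2, a POU-domain factor of retinal ganglion cells, and Foxo4, a forkhead factor. At 49 of the 435 genes (11.3%) an asynchronous peak also lay in a promoter window of the gene. For protein-coding genes this held for 46 of 369 with a member (12.5%) and for 1678 of all 22380 (7.50%), values that were not compared by a test. A mitotic peak lay within the gene or 1 kb of it at 74 of the 435 (17.0%). For protein-coding genes this held for 66 of 369 with a member (17.9%) and for 1824 of all 22380 (8.15%). The median span of the genes with a member was 18.5 kb and that of all was 15.4 kb, and these shares were not compared by a test either.

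The scores that the authors gave the members were mostly near the bottom of the asynchronous list. The median was 11.4, the middle range ran from 10.6 to 13.5, and the highest was 30.8, while the whole list had a median of 11.8 and a maximum of 58.3. Of the members, 282 (63.1%) scored within 20% of the lowest value in the list, 10.1, as did 53.8% of all asynchronous peaks. Only 5 members stood among the first 100 of the list and 15 scored 20 or more. The medians by place ran from 11 in inner exons to 11.4 in the other places. A peak near the score minimum of 1 list can be absent from the other for lack of signal, and whether that applied to these members was not tested.

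**Figure D2:**
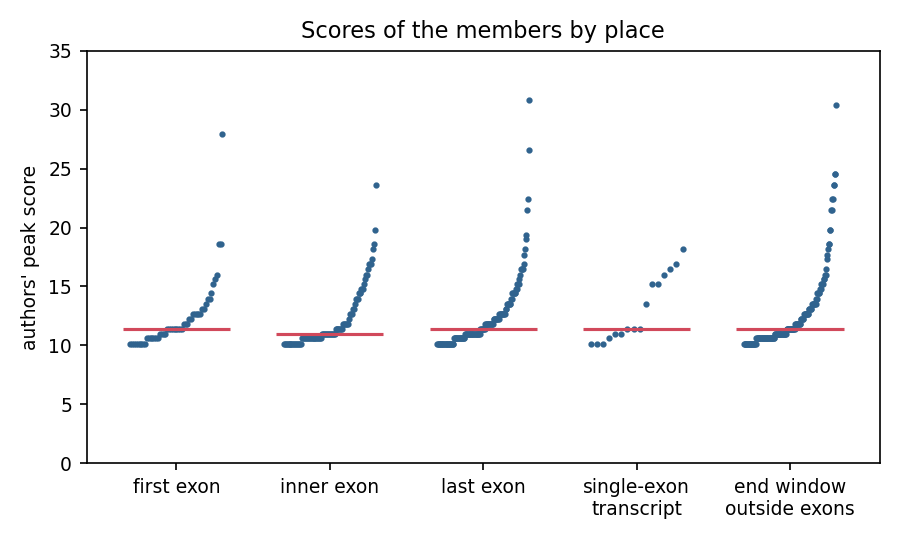
Score of each member in the asynchronous list (vertical axis) by place, with points in rising order and a red line at the median. The highest scores were 30.8 in a last exon and 30.4 in an end window.

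The highest scoring member lay in the last exon of Mknk1, a kinase that phosphorylates the cap-binding factor eIF4E, at chr4:115550810-115550982 in the 3′ UTR, with a score of 30.8. Next came a peak 238 bp past the end of Tnf, the gene of tumour necrosis factor, at chr17:35336002-35336174, with 30.4. The first exon of the lincRNA Gm16952 held a member with 27.9, and the last exon of Nt5m, a mitochondrial nucleotidase, one with 26.6. Fam65a and Pawr each had an end peak with 24.5. Pawr encodes a pro-apoptotic protein. Eno2, the neuronal enolase, and 2210011C24Rik had end peaks with 23.6. Of the 8 members in this paragraph, those at Pawr and 2210011C24Rik held a searched motif.

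Among the other high scores by place, inner exons were led by exon 5 of 9030617O03Rik (23.6), exon 24 of the 89 exons of Lrp1 (19.8), and exons of Accn3, an acid-sensing ion channel (18.6), Spnb4, a spectrin (18.2), and Psmb10, an immunoproteasome subunit (17.3). First exons followed with BC060267 and Tex22, each 18.6, then Rnf168, a ubiquitin ligase of the DNA damage response (16), and Rbm15 (15.6). Last exons had 1700063H04Rik (22.4), BB014433 (21.5) and the transporter gene Slc38a8 (19.4). Single-exon transcripts had the linker histone gene Hist1h1c (18.2), Gm10277 (16.9), Thap11 (16.5), 4930442H23Rik (16) and the pseudogene Gm5067 (15.2).

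The base composition of the members was narrow. Their GC content averaged 56.0% with an SD of 3.11 points over 447 peaks, and from the 5th to the 95th percentile it ran from 50.9% to 60.7%. Independent draws of 173 bases at that mean would have an SD of 3.77 points, so the members varied less among themselves than that. The narrow range was tied to the peak position: in windows of the same width moved by 150 bp to either side the mean was 52.6% and the SD 6.84 points, and at 2000 bp they were 48.4% and 8.67 points. The same was seen in the whole asynchronous list (55.9%, SD 3.24 points) and in the whole mitotic list, whose 203 bp peaks averaged 53.7% (SD 3.40 points). It held in each location too, from 55.2% outside genes to 56.8% at promoters. What set this range was not tested. It bears on any comparison with windows or lists of another GC content, and each motif comparison below was therefore also made, as a choice taken after seeing the data, with only peaks and windows of 53 to 59% GC on both sides.

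**Figure D3:**
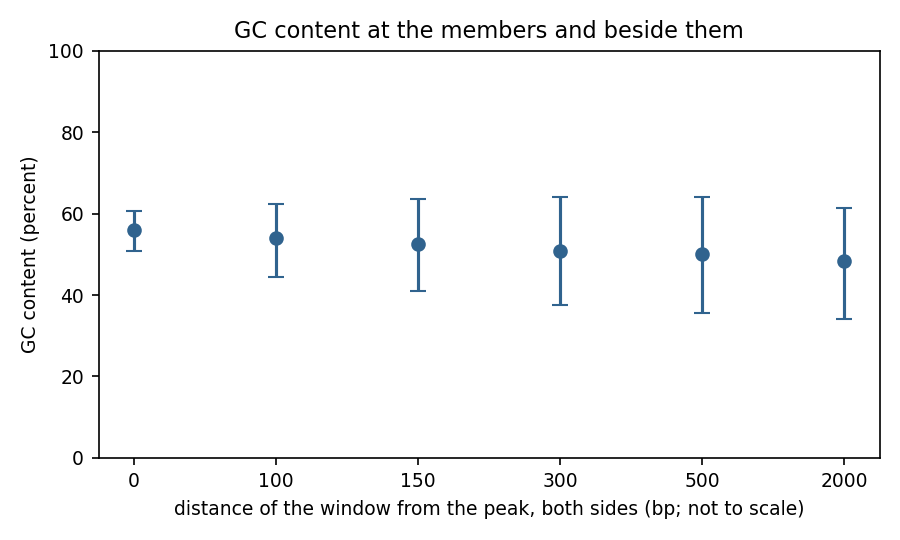
GC content (vertical axis) of windows of the peak's width at the members and at set distances to either side (horizontal axis, not to scale). Points are means and bars run from the 5th to the 95th percentile. The range was narrowest at the peaks, from 50.9% to 60.7%, and widened to 34.1% to 61.3% at 2000 bp.

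The RBPJ motif was present on either strand in 42 of the 447 members (9.40%, 95% Clopper-Pearson interval 6.86 to 12.5%), beside 9.09% of all asynchronous peaks. In windows of the same width 2 kb to the left and right it was present in 15 of 894 (1.68%). The odds ratio was 6.08 (95% interval 3.25 to 11.9), with p = 2.72e-10 and adjusted p = 1.27e-09 over 14 motif comparisons by Fisher's exact test, two-sided as for all that follow. Those windows had the lower GC content given above. With 53 to 59% GC on both sides, the motif was in 29 of 315 members and in 3 of the 128 windows in that range beside these 315, an odds ratio of 4.22 (interval 1.27 to 22.0, Fisher's exact adjusted p = 0.0473). With the windows in that range beside all members it was in 4 of 185, an odds ratio of 4.59 (interval 1.57 to 18.2, Fisher's exact adjusted p = 0.00804). Against other exons of the genes of these 315 members in that GC range, 14 of 958 with the motif, the odds ratio was 6.84 (interval 3.44 to 14.2, Fisher's exact adjusted p = 1.51e-08). With the shorter motif TTCCCA the odds ratio against the flanking windows was 2.50. The windows and other exons came from the members' own loci or genes, a pairing that the tests here and for the CTCF motif did not use.

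In the share of RBPJ motifs, no difference from the other interphase-only peaks passed the threshold. The motif was in 7.06% of promoter peaks (odds ratio 1.37, 0.913 to 2.01, Fisher's exact adjusted p = 0.181), in 9.91% of intron peaks (0.942, 0.639 to 1.37, adjusted p = 1) and in 9.23% of peaks outside genes (1.02, 0.692 to 1.48, adjusted p = 1). With protein-coding transcripts only, the comparison with promoter peaks passed, at an odds ratio of 1.78 (Fisher's exact adjusted p = 0.0104, range over its alternatives 0.0104 to 0.583). Among mitotic-only exon and end peaks it was in 12 of 309 (3.88%), an odds ratio of 2.57 (interval 1.30 to 5.45, Fisher's exact p = 0.00381, adjusted p = 0.0107). That difference did not pass the threshold with 53 to 59% GC on both sides: the shares were 29 of 315 (9.21%) and 11 of 183 (6.01%), with an odds ratio of 1.59 (interval 0.745 to 3.61, Fisher's exact adjusted p = 0.469). The mitotic-only peaks averaged 54.2% GC and the members 56.0%. Their median score was 10.9, where the lowest of the mitotic list was 10.2. Each side came from 1 library, so the p is over peaks and does not bear on the cell populations. With any GC, the odds ratio was 1.65 for TTCCCA and 4.48 with protein-coding transcripts only.

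The CTCF motif was present in 61 of the 447 members (13.6%, 10.6 to 17.2%), beside 11.1% of all asynchronous peaks. In the flanking windows it was present in 21 of 894 (2.35%), an odds ratio of 6.57 (interval 3.87 to 11.5, Fisher's exact p = 5.57e-15, adjusted p = 7.80e-14). With 53 to 59% GC on both sides it was in 39 of 315 members and in 1 of the 128 windows beside them, an odds ratio of 17.9 (wide interval, 2.96 to 732, Fisher's exact p = 1.43e-05). With the windows in that range beside all members it was in 3 of 185, an odds ratio of 8.57 (interval 2.66 to 43.9, Fisher's exact adjusted p = 5.04e-05). Against other exons of the genes of these 315 members in that range, 10 of 958 with the motif, the odds ratio was 13.4 (interval 6.45 to 30.4, Fisher's exact adjusted p = 3.35e-15). With 1 mismatch allowed at the fixed bases, the odds ratio against the flanking windows was 3.47.

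The members held the CTCF motif more often than interphase-only promoter peaks, where it was in 56 of 1445 (3.88%). The odds ratio was 3.92 (interval 2.63 to 5.84, Fisher's exact p = 4.66e-12, adjusted p = 3.26e-11), and 3.56 (2.16 to 5.86, adjusted p = 3.80e-06) with 53 to 59% GC on both sides. They also held it more often than mitotic-only exon and end peaks, 9 of 309 (2.91%), with an odds ratio of 5.27 (interval 2.54 to 12.2, Fisher's exact adjusted p = 5.48e-07), and 6.32 (2.22 to 24.7, adjusted p = 0.000205) in the GC range. Here too each side was 1 library, the mitotic-only peaks had scores mostly near the lowest of their list, and the p does not bear on the cell populations. Intron peaks (13.8%, odds ratio 0.989, 0.712 to 1.36, Fisher's exact adjusted p = 1) and peaks outside genes (13.5%, 1.01, 0.731 to 1.39, adjusted p = 1) had shares that were not told apart from the members'. With 1 mismatch allowed, the odds ratio was 2.23 against promoter peaks and 2.09 against mitotic-only peaks.

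**Figure D4:**
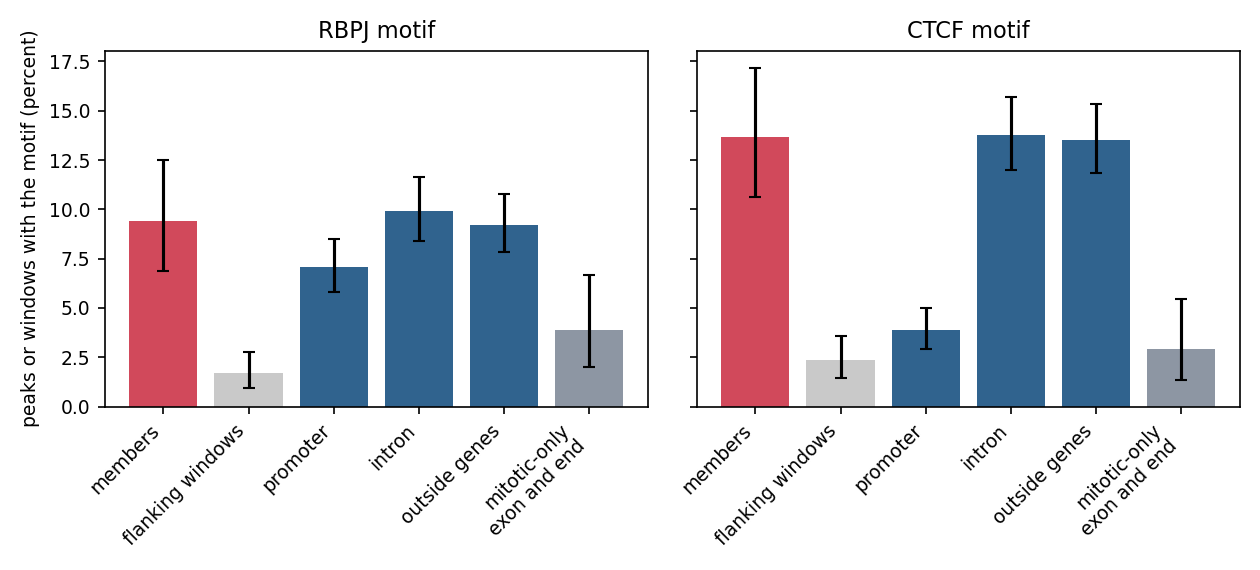
Share of peaks or windows with the RBPJ motif (left) and the CTCF motif (right) in the members, their flanking windows and the other lists. Bars start at 0 and error bars are 95% Clopper-Pearson intervals. The members stood at 9.40% and 13.6%, their flanking windows at 1.68% and 2.35%. The lists were not matched in GC content.

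Within the members, first exons were compared with inner exons, and all exon members with end members, and neither comparison passed the threshold for either motif. Last exons and single-exon transcripts were not tested on their own, nor were the kinds of exon sequence. By the latter, the RBPJ motif was in 6 of 32 members in 5′ UTRs (18.8%, 7.21 to 36.4%), 12 of 120 in coding sequence (10.0%, 5.27 to 16.8%), 8 of 79 in 3′ UTRs (10.1%, 4.47 to 19.0%) and 1 of 66 without coding sequence (1.52%, 0.0384 to 8.16%). The CTCF motif was in 2 of 32, 11 of 120, 11 of 79 and 10 of 66 in the same order. The RBPJ motif was in 4 of 51 first exons and 9 of 97 inner exons (odds ratio 0.832, 0.178 to 3.18, Fisher's exact adjusted p = 1), and in 27 of 297 exon members and 15 of 150 end members (0.900, 0.445 to 1.89, adjusted p = 1). The CTCF motif was in 2 of 51 first and 13 of 97 inner exons (0.264, 0.0280 to 1.25, Fisher's exact p = 0.0878, adjusted p = 0.176), and in 34 of 297 exon and 27 of 150 end members (0.589, 0.329 to 1.06, p = 0.0596, adjusted p = 0.139). With protein-coding transcripts only, both CTCF comparisons passed by Fisher's exact test, with odds ratios of 0 (adjusted p = 0.0104) and 0.386 (adjusted p = 0.00570). The first of them also passed, each time at an odds ratio of 0, in the central part of the peaks alone (Fisher's exact adjusted p = 0.0381) and with scores at or above the list median (Fisher's exact adjusted p = 0.0421). Over all alternatives its adjusted p ran from 0.0104 to 0.997, and that of exons against ends from 0.00570 to 0.321.

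Of the members, 100 held either motif (22.4%), 3 held both and 347 held neither (77.6%). The share with either motif was not computed for the other peaks. Of all asynchronous peaks, 9.09% held the RBPJ motif and 11.1% the CTCF motif, so the 22.4% is not shown to be particular to the members. Among the other interphase-only peaks, 3 of 1445 at promoters, 13 of 1372 in introns and 13 of 1517 outside genes held both, which was not tested. The 3 members with both were in the last exon of BB014433, in exon 24 of Lrp1, and 627 bp past the end of Tubb3, the neuronal beta-tubulin gene. The middles of the motifs were 64, 37 and 14 bp apart, and in 0 of these members did the matches overlap. When the members were divided by score into 4 groups of 112, 112, 112 and 111, the RBPJ motif was in 18, 10, 5 and 9 from the highest scores to the lowest, and the CTCF motif in 23, 12, 13 and 13. The group with the highest scores (13.5 to 30.8) had the most of both, with no steady fall below it, and this was not tested.

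The distance of the motifs from the peak centres is given beside that in the other interphase-only peaks, without a test. The match closest to the centre was within 25 bp of it in 22 of 42 members with the RBPJ motif (52.4%, 36.4 to 68.0%), where an even spread over the peak would give 30.1%. For the CTCF motif it was 29 of 61 (47.5%, 34.6 to 60.7%), beside 30.9%. The RBPJ motif was within that distance in 51.0% of promoter peaks with it, 47.8% of intron peaks and 48.6% of peaks outside genes. For the CTCF motif the shares were 48.2%, 52.4% and 55.6%. The RBPJ motif ended in A in 25 members and in G in 17. It read along the gene's strand in 17 of 42 (40.5%, 25.6 to 56.7%) and the CTCF motif in 33 of 61 (54.1%, 40.8 to 66.9%), and both intervals include an even split. The whole motif lay in coding sequence of the reference transcript in 9 members for RBPJ and 8 for CTCF.

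**Figure D5:**
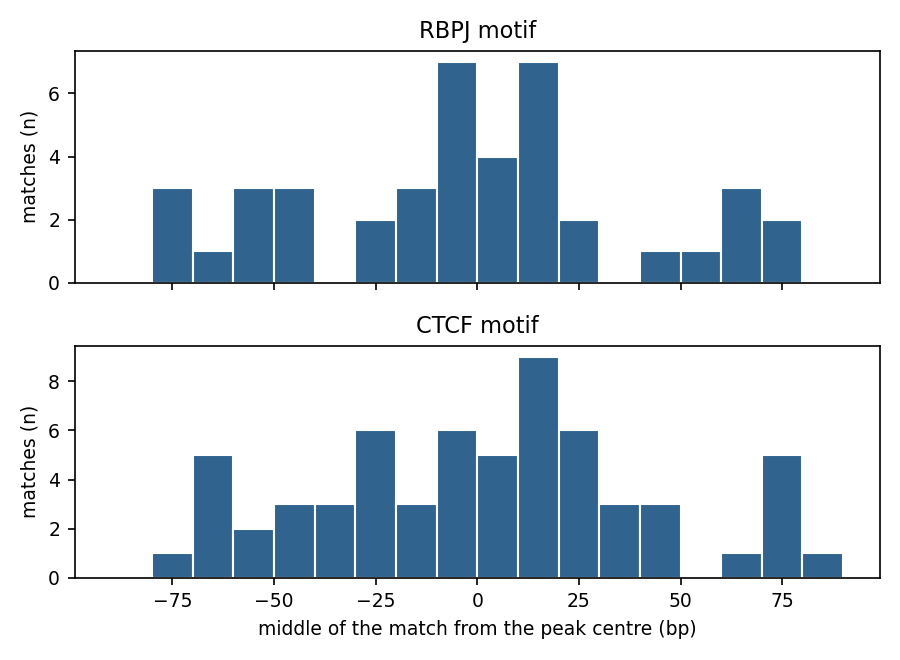
Number of RBPJ (top) and CTCF (bottom) motif matches in the members (vertical axis) by the distance of their middle from the peak centre in bp (horizontal axis). Matches within 25 bp of the centre were found in 22 of 42 and 29 of 61 members with a match.

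Of the members printed above, those with the RBPJ motif at Pawr, Ghrh, BB014433 and Tubb3 had it 15.5, 9.5, 9.5 and 0.5 bp from the centre. At Hist1h2be it lay 12.5 bp away, at Lrp1 18.5 bp, at Hes3 42.5 bp, at 1700063H04Rik 63.5 bp and at Prdm14 74.5 bp. The CTCF motif lay 0.5 bp from the centre at Lag3, 17.5 bp at Rps19, 18.5 bp at Lrp1, 21.5 bp at Frmd8, 24.5 bp at 2210011C24Rik and 41.5 bp at 9030617O03Rik. Ghrh encodes growth hormone-releasing hormone and Lag3 an inhibitory receptor of T cells.

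Genes of the Notch pathway were looked up in fixed lists. Of 11 Notch receptor and ligand genes, 1 had a member: Notch1, in the 3′ UTR of its last exon, with a score of 10.6 and neither motif. Of 12 genes for Hes, Hey and related bHLH repressors, 2 had one. Hes3, a repressor of the Hes family, had a peak 290 bp past its end, with a score of 17.7 and an RBPJ motif, and Bhlhe40, a related bHLH repressor outside the Hes and Hey families, had one 882 bp past its end, with a score of 12.2 and neither motif. The Hes3 peak was at 2 genes and the Notch1 peak at 3. None of the 26 genes for Notch processing and 0 of the 26 for RBPJ cofactors and Notch repressors had a member, and neither did the 16 for CTCF and cohesin or the 40 Hox genes. For comparison, 369 of 22380 protein-coding genes (1.65%) had a member and 265 had a mitotic-only exon or end peak. Such mitotic-only peaks were at 0 of the Notch receptor and ligand genes and at 1 Notch processing gene. They were also at 1 gene of the Hes, Hey and related repressors and at 2 Hox genes. These lists are small and were not tested.

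Of 29 pluripotency genes, 3 had a member. They were Prdm14, a regulator of germ cells and naive pluripotency, with the peak centre in coding sequence of exon 2, an RBPJ motif 74.5 bp from it that lay outside coding sequence, and a score of 11, Zfp42, known as Rex1, in coding sequence of its last exon (11), and Stat3, the effector of LIF signalling, in the first exon of a non-coding transcript (10.6). Of 61 Wnt pathway genes, 3 had one: the receptors Fzd7 (13.1) and Fzd5 (11) and the ligand Wnt8b (10.1). Of 56 cell cycle genes, the 3 with a member were E2f2 (14.8) and the D-type cyclins Ccnd1 (12.7) and Ccnd2 (10.1), all in last exons. Mitotic-only exon or end peaks were at 4 of the pluripotency genes, 1 Wnt pathway gene and 1 cell cycle gene. Among all protein-coding genes 1.65% had a member, and these lists were not tested.

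Of 70 replication-dependent histone genes, 4 had a member: Hist1h1c (18.2), Hist1h1d (15.2), Hist1h2be (14.4, with an RBPJ motif) and Hist2h4 (11). Those at Hist1h1c, Hist1h1d and Hist2h4 lay in single-exon transcripts. The peak at Hist1h2be lay 850 bp past the end of a 2-exon transcript and 38202 bp from its start, and was at 2 genes. Of 83 ribosomal protein genes, Rps19 had one, 845 bp past its end with a CTCF motif (14.8). Of 145 developmental factors of other families, 3 had members: Foxj1, the regulator of motile cilia (14.4), Foxo4 with a pair (13.1 and 10.6) and Foxr2 (10.6). Of 112 chromatin modifier genes, those with a member were the histone demethylases Kdm4a (16.5) and Kdm2a (11.8) and the methyltransferase subunit Setd1b (10.1). Of 99 splicing and RNA-binding genes, Rbm15 (15.6) and Srsf3 (10.1) had one. Mitotic-only exon or end peaks were at 7 of these developmental factors, 3 chromatin modifier genes and 1 ribosomal protein gene. They were at 0 of the histone and 0 of the splicing and RNA-binding genes. Among all protein-coding genes 1.65% had a member, and these lists were not tested either.

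The 250 bp threshold divided few peaks. The members closest to it were an end peak of Caprin1, 340 bp from a mitotic centre, a last-exon peak of Tchh at 398 bp and a first-exon peak of Cd38 at 415 bp, with scores of 10.6, 11.8 and 10.6. The nearest peaks on the other side were in exons of 4931428F04Rik at 191 bp, Gm10807 at 169 bp and Pskh1 at 163 bp, with scores of 16, 14.4 and 14.4. The median distance from a member to the nearest mitotic centre was 73623 bp, and 11 members had one within 1000 bp. Among them were the peaks at Rps19 (481 bp) and 2210011C24Rik (586 bp), both printed above with the CTCF motif. Another asynchronous centre lay within 1000 bp of 23 members (5.15%), beside 4.98% of all asynchronous peaks.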

How the data were processed

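The authors aligned reads to mm9 with Bowtie 0.12.7, keeping unique alignments, and called peaks with HOMER (no version given) against the matching input. Each deposited list gives a peak's position and a score, used here as the authors wrote it and only within a list. The numbers of reads behind the lists were not used here. The asynchronous list held 5206 peaks of 173 bp and the mitotic list 3227 of 203 bp. Peaks were placed by their centre on 95495 GENCODE M1 transcripts, with the priority promoter, exon or end window, intron, outside genes. Motifs were searched on both strands in the mm9 sequence. Shares have Clopper-Pearson intervals, and comparisons are two-sided Fisher's exact tests over peaks with Benjamini-Hochberg adjustment over 14 comparisons and a threshold of 0.05. Densities have Poisson intervals.

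Alternatives changed the motif spelling, peak width, score minimum, peaks per gene, distance between lists, transcripts and control windows. The restriction to 53 to 59% GC was added after the data were seen. Named genes are the 5 members with the highest scores in each place, members with both motifs, the 8 highest with the RBPJ and the 6 highest with the CTCF motif, members at genes of 14 lists, and the 3 peaks on either side of the 250 bp threshold; the rule on genes with several members found none with 3, so pairs named were chosen after their values were seen. A member that the rule names is not reported. The members and lists were chosen with earlier results of these data known. Python 3.11.15, numpy 2.4.6, scipy 1.17.1, pysam 0.24.0 and matplotlib 3.10.9 were used, and the steps were tested on simulated data.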

Additional observations from a re-analysis of the deposited data

How the results depend on the processing

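No paired analysis was possible because 1 peak list per population was used here, so the replicate numbers shared by the labels have no values to pair. Of 106 alternative values for the 14 motif comparisons, those that changed a direction or a call are given here as odds ratios, and the cause was not tested.

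With 53 to 59% GC on both sides, added after the data were seen, the RBPJ motif in members against mitotic-only exon and end peaks fell from 2.57 to 1.59 and no longer passed, and CTCF against peaks outside genes turned to 0.837. In the other alternatives of the RBPJ comparison with mitotic-only peaks, the adjusted p ran up to 0.0381. With TTCCCA, RBPJ turned to 0.879 against peaks outside genes and to 1.41 for first against inner exons. With 1 mismatch, CTCF turned to 1.11 against intron peaks. In the central part of the peaks alone, RBPJ turned to 0.879 against peaks outside genes and to 1.09 for first against inner exons, CTCF turned to 0.843 against peaks outside genes, and CTCF in first against inner exons passed at 0. With scores at or above the list median, RBPJ in first against inner exons turned to 1.22, CTCF against intron peaks to 1.24, and CTCF in first against inner exons passed at 0. With other centres within 1 kb, CTCF against peaks outside genes turned to 0.986. With protein-coding transcripts only, RBPJ against promoter peaks passed at 1.78, RBPJ and CTCF against intron peaks turned to 1.13 and 1.01, and CTCF passed at 0 for first against inner exons and at 0.386 for exons against ends. The turned values were of comparisons that passed neither way. The count of 447 members moved to 297 with exons only and to 195 with scores at or above the median.

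The flanking-window comparisons and the CTCF comparisons with promoter and mitotic-only peaks passed in each alternative run, but their sizes moved. Against flanking windows the RBPJ odds ratio ran from 2.50 (TTCCCA) to 7.77, and that of CTCF from 3.47 (1 mismatch) to 17.9 (53 to 59% GC, 8.57 with the windows of all members). CTCF ran from 2.23 to 6.15 against promoter peaks and from 2.09 to 6.70 against mitotic-only peaks, both lowest with 1 mismatch and highest with protein-coding transcripts only. Read depth was not used here, and how far it limits the mitotic list was not tested.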
